A study of Mus musculus with 33 samples.

Results

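The proteasome subunit genes were taken as all genes whose annotated symbol begins with Psm, a letter from a to g and a digit, with the probe of highest mean level standing for each gene. Of 19057 genes named by a probe on the array, 49 matched. Of these, 47 are known subunits, activators or assembly factors of the proteasome, and 2, Psmc3ip and Psme3ip1, share the name pattern but encode partner proteins. At least 1 probe was above background on 3 or more arrays for 45 of the 49 genes, which were tested among 14338 genes. Psma1, Psma3 and Psma6 of the alpha ring and Psmd3 of the regulatory lid did not pass that filter, so nothing is reported on their change. Psmf1, the inhibitor PI31, had no probe listed under that symbol.

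Liver RNA of mice was hybridised to Illumina bead arrays, 1 array per sample, on 33 samples in 7 groups. Sav1 -/- mice gave 11 hepatocellular carcinomas and 7 samples of the liver around tumours, and Mst1/2 -/- mice gave 4 carcinomas and 3 samples of surrounding liver. Normal liver came from 3 Sav1 flox mice, 3 Mst1/2 flox mice and 2 wild-type (Wt) mice. The Hippo pathway, which restrains liver growth, runs through Mst1 and Mst2, related kinases, and their scaffold protein Sav1. The Cre driver, age, strain and sex of the mice are not given in the sources used here, nor is it given whether a tumour and a surrounding sample came from the same mouse, so p-values reflect only how far these samples spread, which may be technical.

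The proteasome degrades proteins tagged with ubiquitin. Its barrel-shaped 20S core is built of alpha and beta rings, and 3 of the beta subunits (Psmb5, Psmb6, Psmb7) carry the proteolytic sites. A 19S regulatory particle of ATPases and non-ATPase subunits binds, unfolds and feeds substrates. Interferon-gamma induces replacement subunits (Psmb8, Psmb9, Psmb10) that form the immunoproteasome, and the PA28 activator (Psme1, Psme2), which favour peptides for display on MHC class I. Hepatocytes hold mostly constitutive proteasomes in the unstimulated state, and leukocytes hold much immunoproteasome.

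The promoters of the 3 immunoproteasome genes and of Psmb5 are shown because interferon-gamma is known to induce the former and Psmb5 is the constitutive counterpart of Psmb8. The 150 bases before each start are given from RefSeq (GRCm38.p6), 5′ to 3′ on the gene's strand, with motif matches in capitals. Windows were found for 41 of the 49 genes.
Psmb8, chr17:34198045-34198194, plus strand: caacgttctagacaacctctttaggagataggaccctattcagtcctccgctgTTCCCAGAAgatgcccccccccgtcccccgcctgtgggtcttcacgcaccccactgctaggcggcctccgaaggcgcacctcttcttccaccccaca
Psmb9, chr17:34187331-34187480, minus strand: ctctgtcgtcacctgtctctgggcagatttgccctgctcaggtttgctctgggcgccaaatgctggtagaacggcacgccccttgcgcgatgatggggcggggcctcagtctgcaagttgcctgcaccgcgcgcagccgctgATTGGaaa
Psmb10, chr8:105938393-105938542, minus strand: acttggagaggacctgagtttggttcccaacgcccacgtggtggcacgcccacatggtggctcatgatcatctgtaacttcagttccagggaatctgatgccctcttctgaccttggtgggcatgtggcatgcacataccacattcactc
Psmb5, chr14:54617996-54618145, minus strand: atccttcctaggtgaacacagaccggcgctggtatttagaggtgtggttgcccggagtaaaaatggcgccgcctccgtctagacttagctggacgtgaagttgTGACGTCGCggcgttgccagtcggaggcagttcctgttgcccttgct
The capitals are a GAS match (TTCNNNGAA) in Psmb8, a reversed CCAAT box in Psmb9 and a match to the antioxidant response element core (TGACNNNGC) in Psmb5. Over the 250 bases before the start and on both strands, GAS matched in 7.02% of 32851 RefSeq promoter windows, the antioxidant core in 10.2% and CCAAT in 33.8%. The interferon-stimulated element core (GAAA, any 2 bases, GAAA) matched in 2.98% of windows. Among the 41 member genes these motifs matched in 2, 5, 16 and 3 genes in the same order, and the interferon-stimulated core matched in none of Psmb8, Psmb9, Psmb10, Psme1 and Psme2, which says only that these letters are not in those windows. The full RefSeq windows, which also run past the start into the gene, overlap by 275 bases between Psmb9 and Tap1, the peptide transporter gene on the opposite strand.

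Levels below are log2 intensities after background correction and quantile normalization, on which the lowest possible level was 5.65. They compare 1 gene between samples and not genes with each other. The arrays were clustered by the pattern of 11075 dim probes, not by any label, and cut into sets A, B and C. The number of 3 sets was fixed beforehand. Mean r between arrays of a set was 0.146 in A but only 0.015 in B and in C, so B and C were loose sets. Set A held all Sav1 flox livers and Sav1 surrounding and tumour samples 1 to 3. Set B held Sav1 tumours 6 to 11 with every Mst1/2 and Wt sample, and set C the other Sav1 samples. Between 34.8% and 55.0% of probes on an array were above background. RNA of Sav1, and of Stk4, the gene of Mst1, was not lower in tumours by more than the SD of the controls. Sav1 stood at 9.31 ± 0.33 (SD, n = 3) in Sav1 flox livers and 9.05 ± 0.48 (n = 11) in Sav1 tumours, and Stk4 at 9.69 ± 0.12 (n = 3) in Mst1/2 flox livers and 9.81 ± 0.17 (n = 4) in Mst1/2 tumours. The labels name no deleted part that these probes could test. Xist stood at 10.91 ± 0.33 (n = 3) in the Mst1/2 flox livers against group means of 6.12 to 6.30 elsewhere, so sex and genotype cannot be told apart where those livers are the control.

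A pair of normal livers had the lowest median levels of the constitutive members. Over 27 constitutive 26S subunits, the median distance from each gene's median over all arrays was -0.47 (log2) in Wt liver 7 and -0.22 in Sav1 flox liver 2, the lowest and next lowest of 33 arrays. The array after these was Sav1 surrounding liver 5 at -0.15, and the distance was not taken over all genes. Sav1 flox liver 2 held the lowest level of all arrays in 7 of the 27 genes, and Wt liver 7 and Sav1 tumour 7 in 4 each. Wt liver 7 also held the highest level in 3 and Sav1 flox liver 2 in 1. At the other end Sav1 tumour 2 stood at 0.49 and held the highest level in 9 of the 27.

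Of the 3 immunoproteasome genes, Psmb10 was called higher in Sav1 tumours and surrounding liver than in Sav1 flox livers, Psmb9 in tumours, and Psmb8 in neither. Psmb10 rose in surrounding liver by 1.30 ± 0.34 (log2, SE) and in tumours by 1.17 ± 0.32, and Psmb9 rose in tumours by 0.94 ± 0.35 (limma, adjusted p = 0.015, 0.0061 and 0.041). In surrounding liver Psmb9 differed by 1.00 ± 0.37 and did not pass (adjusted p = 0.078). None of these calls passed without Sav1 flox liver 2, at 1.05 ± 0.39 and 0.92 ± 0.37 for Psmb10 in surrounding liver and tumours (adjusted p = 0.14 and 0.077) and 0.75 ± 0.42 for Psmb9 in tumours (0.20). Psmb8 had differences of 0.77 ± 0.53 and 0.28 ± 0.50 in surrounding liver and tumours over all Sav1 flox livers and did not pass the test (adjusted p = 0.35 and 0.69). The other probe of Psmb8 (r = 0.748) gave 0.74 in tumours and was not called. Within array set A, Psmb8 in surrounding liver differed by 1.30 ± 0.32 and Psmb10 by 1.31 ± 0.38, and neither passed (adjusted p = 0.15 and 0.18). None of the 3 passed between tumour and surrounding liver of either line.

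Psmb10 encodes the immunoproteasome counterpart of Psmb7. Its log2 level was 10.45, 9.75 and 10.52 in the Sav1 flox livers. Sav1 surrounding livers ran from 10.98 to 12.36 with a median of 11.29, and Sav1 tumours from 10.81 to 12.94 with a median of 11.30. Every Sav1 -/- sample was above every Sav1 flox liver. The Mst1/2 flox livers stood at 11.06, 11.00 and 10.73 and the Wt livers at 9.95 and 11.09. In the Mst1/2 line the surrounding livers were at 11.24, 11.49 and 11.18 and the tumours at 11.81, 11.55, 11.43 and 11.45. These Mst1/2 -/- samples all exceeded their floxed controls, but the difference of 0.63 ± 0.37 for tumours did not pass (adjusted p = 0.25). Both probes of Psmb10 ran together over the arrays (r = 0.885). The other gave 0.87 in Sav1 tumours against Sav1 flox and was not called.

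Psmb9, which takes the place of Psmb6, was at 9.60, 9.39 and 10.32 in the Sav1 flox livers. Sav1 surrounding livers lay between 10.49 and 11.65 (median 10.64), all above these controls. Sav1 tumours lay between 9.58 and 11.88 (median 10.87), with tumours 1, 3 and 8 inside the range of the controls. Psmb9 was at 10.31, 9.86 and 9.60 in Mst1/2 flox, 8.89 and 10.21 in Wt, 10.16, 10.11 and 10.40 in Mst1/2 surrounding liver, and 10.53, 10.45, 10.02 and 10.29 in Mst1/2 tumours. The Mst1/2 groups overlapped each other.

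Psmb8, the counterpart of Psmb5, varied most among the Sav1 tumours, from 8.82 in tumour 7 to 13.17 in tumour 2 (median 10.77). Sav1 surrounding livers ran from 10.26 to 12.50 (median 11.09) and the Sav1 flox livers were at 10.52, 10.16 and 10.80. The Sav1 tumours thus lay on both sides of their controls. In the Mst1/2 line it stood at 10.60, 10.38 and 9.55 in flox livers, 11.03, 10.99 and 11.17 in surrounding livers and 11.28, 11.49, 11.22 and 11.67 in tumours. Those groups did not overlap, yet the difference of 1.24 ± 0.58 between tumour and flox did not pass (adjusted p = 0.14). The Wt livers were at 10.06 and 11.09.

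Psme1, the alpha subunit of PA28, rose in Mst1/2 tumours by 0.88 ± 0.30 over Mst1/2 flox (limma, adjusted p = 0.035). Its log2 level was 12.76, 12.57, 12.85 and 12.76 in those tumours and 12.01, 11.78 and 11.78 in the flox livers, with no overlap. Mst1/2 surrounding livers were at 12.45, 12.85 and 12.56 and Wt livers at 10.77 and 12.14. In the Sav1 line it was at 12.16, 11.73 and 12.09 in flox livers, 12.41 to 13.27 (median 12.56) in surrounding livers and 11.84 to 13.37 (median 12.78) in tumours. The Sav1 differences of 0.64 ± 0.27 and 0.63 ± 0.25 did not pass (adjusted p = 0.11 and 0.052). Leaving out any array but Mst1/2 tumour 2 took the Mst1/2 call away, with adjusted p from 0.059 to 0.10.

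Psme2, the beta subunit of the same ring, showed no called difference in any of the 8 comparisons. Its log2 level was 9.93, 8.81 and 10.27 in Sav1 flox, 8.81 to 10.11 (median 9.81) in Sav1 surrounding liver and 8.13 to 10.19 (median 9.64) in Sav1 tumours. It was at 10.09, 9.80 and 9.77 in Mst1/2 flox, 8.78 and 10.06 in Wt, 9.98, 9.58 and 9.95 in Mst1/2 surrounding liver and 9.34, 9.62, 9.62 and 9.70 in Mst1/2 tumours. The 3 Sav1 groups overlapped. The Mst1/2 tumours all lay under the Mst1/2 flox livers, by a mean of -0.32 ± 0.41 (adjusted p = 0.63). The difference between Psme1 and Psme2 was not tested.

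With the probes used, the constitutive catalytic subunits gave no call in any of the 8 comparisons. Psmb5, the chymotrypsin-like site, was at 10.01, 7.70 and 8.96 in Sav1 flox, 9.05 to 10.64 (median 9.69) in Sav1 surrounding liver and 8.64 to 10.76 (median 9.47) in Sav1 tumours. It stood at 9.11, 10.61 and 8.78 in Mst1/2 flox, 8.14 and 9.27 in Wt, 10.44, 9.37 and 10.41 in Mst1/2 surrounding liver and 9.53, 9.80, 9.26 and 8.76 in Mst1/2 tumours. Levels were spread widely inside each group.

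Psmb6, the caspase-like site, kept to a narrow band. It was at 12.95, 11.97 and 13.03 in Sav1 flox, 12.60 to 13.17 (median 13.01) in Sav1 surrounding liver and 12.46 to 13.24 (median 12.98) in Sav1 tumours. The Mst1/2 groups were at 13.02, 13.05 and 12.91 in flox, 13.29, 13.12 and 13.16 in surrounding liver, and 13.09, 13.26, 13.05 and 13.06 in tumours, and the Wt livers at 12.09 and 12.89. Sav1 flox liver 2 and Wt liver 7 were the low samples. Psmb7, the trypsin-like site, was at 13.39, 12.54 and 13.26 in Sav1 flox, 12.34 to 13.12 (median 12.97) in Sav1 surrounding liver, and 11.82 to 13.49 (median 12.88) in Sav1 tumours. It was at 12.73, 12.99 and 12.91 in Mst1/2 flox, 12.04 and 13.04 in Wt, 12.85, 12.75 and 12.96 in Mst1/2 surrounding liver and 12.72, 12.77, 13.01 and 12.68 in Mst1/2 tumours. The 4 probes of Psmb7 disagreed (r from -0.134 to 0.907). The others gave -0.74 to 0.57 in Sav1 tumours against flox, and the probe at 0.57 was called higher, so the direction of Psmb7 there is uncertain.

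**Figure D1:**
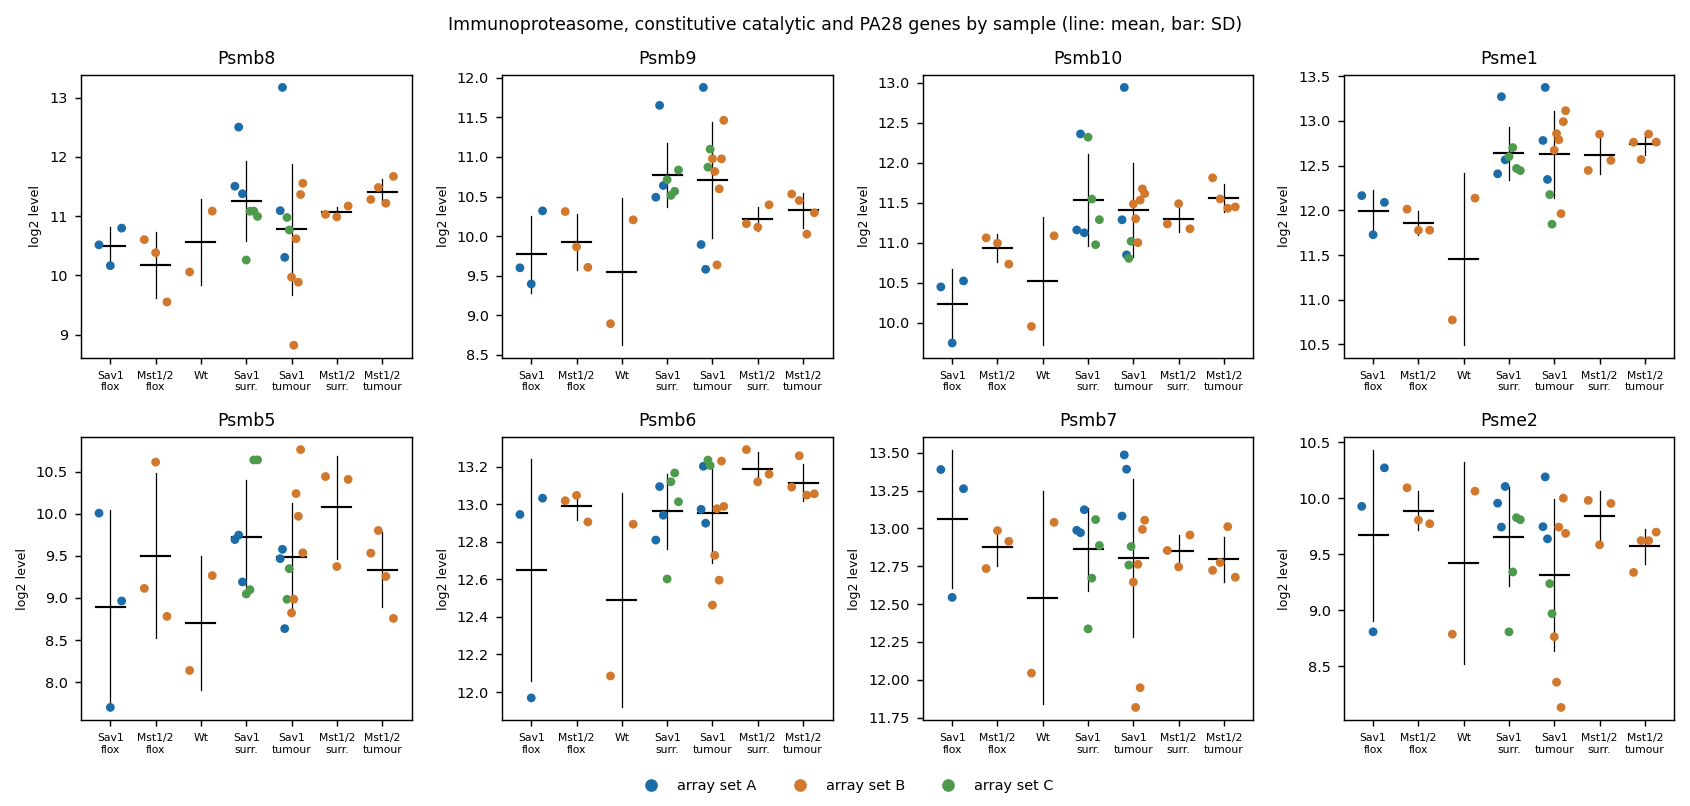
Log2 level of the immunoproteasome genes, their constitutive counterparts and the PA28 genes, 1 point per sample coloured by array set, with the group mean (line) and SD (bar). All Sav1 -/- samples lie above the Sav1 flox livers for Psmb10, whereas Psmb5, Psmb6 and Psmb7 overlap, and Sav1 tumour 2 is the highest point for Psmb8, Psmb9, Psmb10 and Psme1.

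Markers of leukocytes were counted in the same comparisons. Of 12 pan-leukocyte genes tested, 9 were called higher and 1 lower in Sav1 tumours against Sav1 flox, 8 higher in Sav1 surrounding liver, and 2 higher in Mst1/2 tumours. Of all genes 16.9% were higher and 15.8% lower in Sav1 tumours, 4.92% higher in Sav1 surrounding liver and 11% higher in Mst1/2 tumours. The 2 calls in Mst1/2 tumours are near that share. The summed signal of the 12 genes ran from 4291 to 6100 in Sav1 flox livers, 10329 to 52213 in Sav1 surrounding livers and 5939 to 69116 in Sav1 tumours. It ran from 4775 to 5684 in Mst1/2 flox livers and 13288 to 18768 in Mst1/2 tumours. T and NK cell markers were called higher for 5 of 12 genes and lower for 1 in Sav1 tumours, and macrophage and dendritic markers for 9 of 15 and 4 of 15. The part of these cells in the immunoproteasome levels was not tested beyond the relations below, and in bulk tissue a change in cell numbers cannot be told apart from a change in RNA per cell.

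Among the 11 Sav1 tumours, Psmb9 and Psmb10 rose with the mean level of the T and NK cell markers. Over 15 relations of 5 genes with 3 marker lists, Pearson's r was 0.787 for Psmb9 and 0.760 for Psmb10, each with adjusted p = 0.039 (100000-resample permutation test, two-sided, Benjamini-Hochberg over the 15, raw p = 0.0043 and 0.0052). Spearman's rho was 0.673 and 0.709, with raw p = 0.028 and 0.018 and adjusted p = 0.14 for both, so the rank measure did not pass. Without tumours 2 and 11, the farthest from the median of the markers, r fell to 0.575 and 0.423, and for Psmb10 the relation rests largely on those tumours. Within array set B (6 tumours) r was 0.736 and 0.568. The other 13 relations did not pass by Pearson's r, with r from 0.048 for Psme2 with T and NK markers to 0.721 for Psmb10 with the pan-leukocyte list (adjusted p from 0.068 to 0.89), and none of the 15 passed by Spearman's rho.

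**Figure D2:**
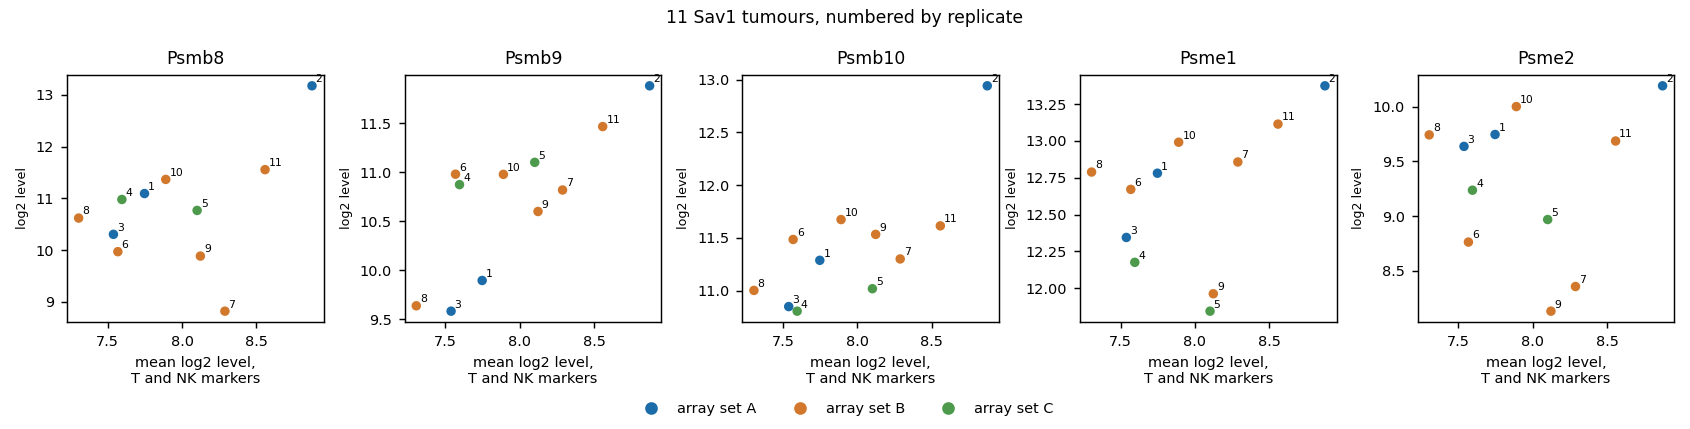
Log2 level of 5 interferon-inducible members (vertical) against the mean log2 level of 12 T and NK cell markers (horizontal) in the 11 Sav1 tumours, numbered by replicate and coloured by array set. Tumours 2 and 11 lie at the right end, and Psmb9 and Psmb10 climb towards them while Psme2 does not (r = 0.048).

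The 3 immunoproteasome genes correlated with each other over the 11 Sav1 tumours at 0.453 to 0.675, with Psmb9 and Psmb10 the closest pair. The 27 constitutive 26S subunits had a median pairwise r of 0.104, ranging from -0.855 to 0.886 over 351 pairs, against 0.001 for pairs drawn from every 7th gene tested. All these arrays share 3 array sets, which bears on both values. Sav1 tumour 2 carried the highest level of all arrays in Psmb8, Psmb9, Psmb10, Psme1 and Psmd10, and Sav1 surrounding liver 2 the next highest in the same 5 genes.

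In Sav1 tumours against Sav1 flox livers, members moved in both directions. Of the 45 tested, 10 were called higher and 6 lower, beside 16.9% and 15.8% of all genes tested. Psmg4, among the higher, passed the filter only through Sav1 -/- samples. The median difference was 0.26 over the members and 0.05 over all genes. Under median scaling, which leaves the median of all genes at 0.27, 27 members were called higher and none lower, beside 4605 and 691 of all genes. The members' median then stood 0.41 above that of all genes, against 0.21 under quantile normalization. The lower calls of Psma8, Psmd5, Psmd11, Psme3 and Psmd1 did not pass under that scaling, and Psmc1 turned to 0.16. Without Sav1 flox liver 2 the count was 3 higher and 3 lower, beside 1531 and 1416 of all genes, against 2426 and 2260 with that liver. Psmd8, Psmc3ip, Psmc2, Psma8, Psmd5 and Psmd11 kept their calls, and 10 lost theirs, Psmb10 and Psmb9 among them. With array set as a block 7 of the 16 kept their calls.

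**Figure D3:**
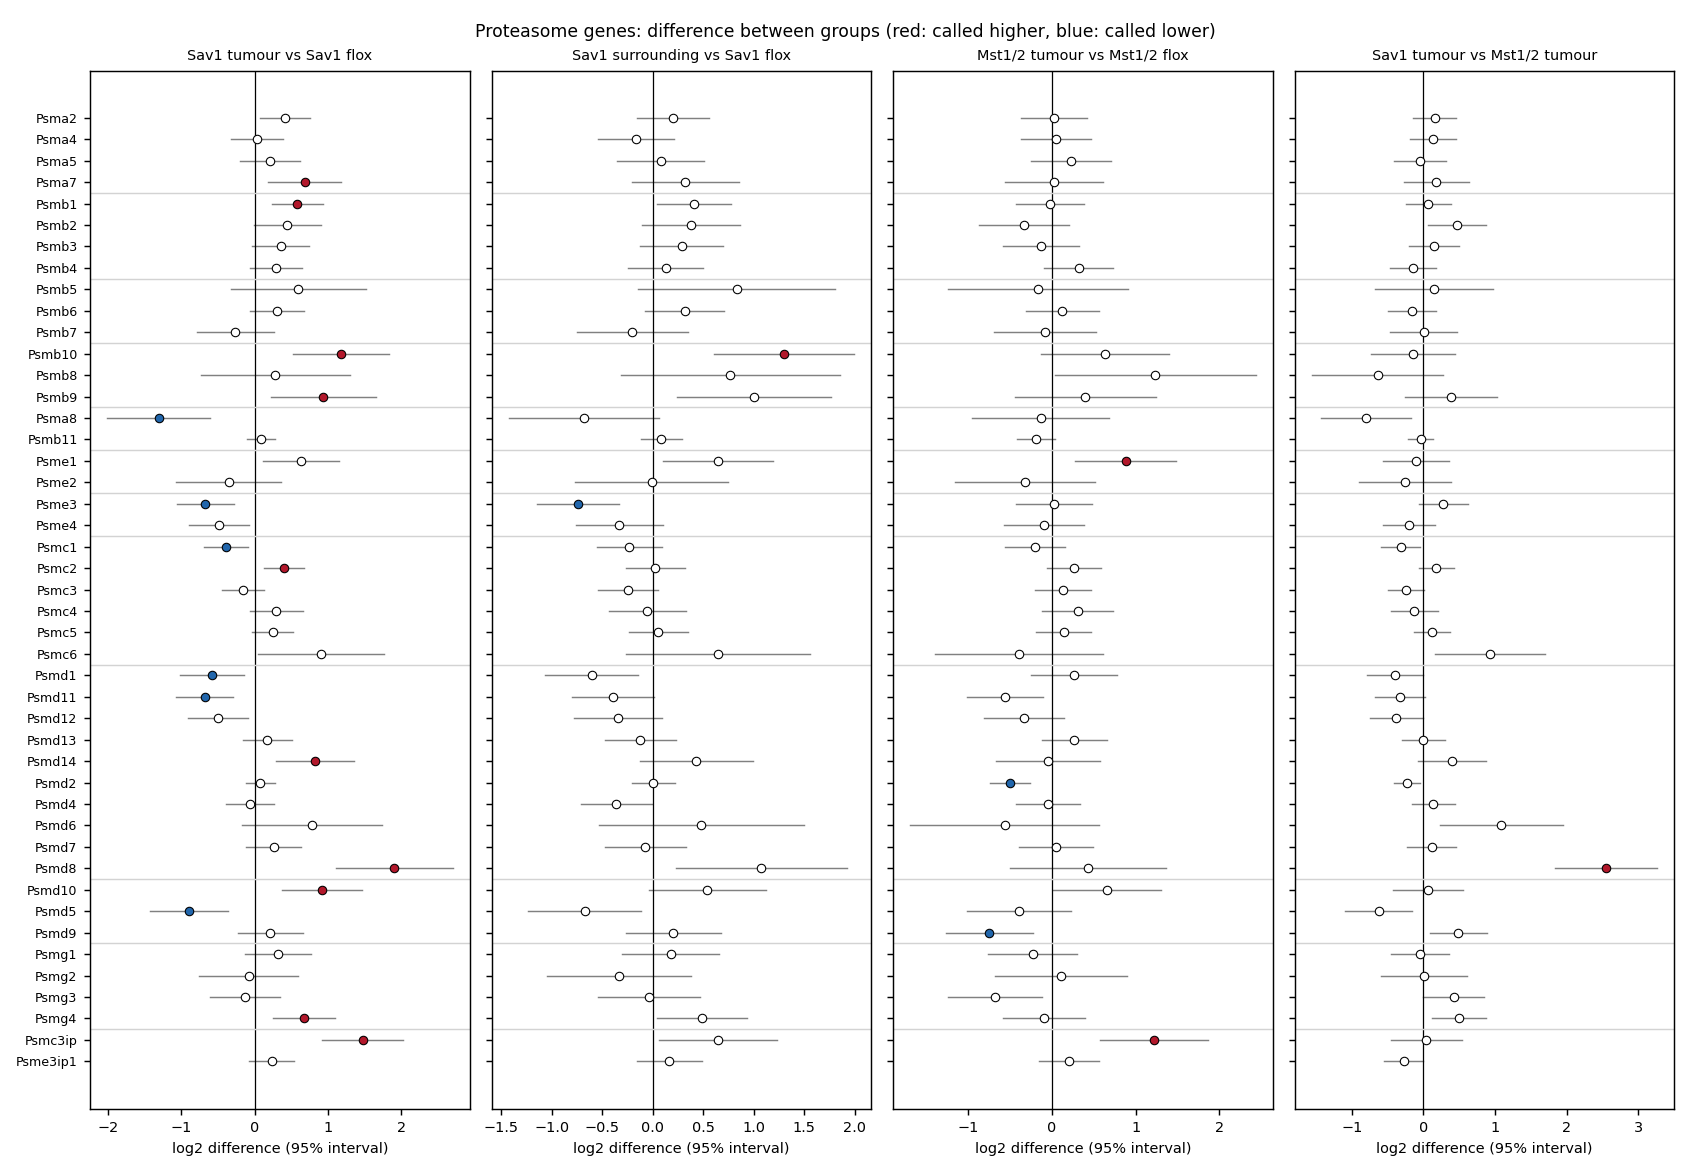
Log2 difference and 95% interval of each tested member in 4 comparisons, members grouped by role from the alpha ring (top) to the 2 partner genes (bottom), red where called higher and blue where called lower. Calls are scattered over the classes in Sav1 tumours, and Psmd8 is the only call between the tumours of the lines.

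In the 20S core the alpha ring gave 1 call among 4 tested genes. Psma7 rose in Sav1 tumours by 0.68 ± 0.24 (adjusted p = 0.033) and by 0.39 ± 0.27 without Sav1 flox liver 2 (0.32). Of 4 structural beta subunits Psmb1 rose by 0.58 ± 0.17 (adjusted p = 0.0096), with 0.24 ± 0.16 (0.30) without that liver. The other structural beta genes differed by 0.29 to 0.44 and the other alpha genes by 0.03 to 0.41 without passing. The probe of Psma5 that was not used differed by 0.65 and was called higher. Psma8, an alpha subunit known mainly from the testis, fell by 1.31 on the log2 scale (SE 0.34, adjusted p = 0.0045). It stood at 8.30, 7.85 and 8.01 in the flox livers and at 6.23 to 8.31 (median 6.60) in the tumours, where only tumour 11 reached the flox range. Sav1 surrounding livers lay between, at 6.90 to 7.72 (median 7.35). Psma8 was at 7.88, 7.88 and 7.28 in Mst1/2 flox, 6.97 and 7.24 in Wt, 7.68, 7.19 and 7.40 in Mst1/2 surrounding liver, and 9.09, 6.67, 6.88 and 7.53 in Mst1/2 tumours. Both of its probes ran together (r = 0.932) and the call held within array set A (-1.29 ± 0.17, adjusted p = 0.019).

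Of the 6 ATPases of the 19S base, Psmc2 was called higher in Sav1 tumours against flox (0.40 ± 0.13, adjusted p = 0.023) and against surrounding liver (0.38 ± 0.10, adjusted p = 0.012). Its log2 level was 13.12, 13.41 and 13.38 in flox livers, 13.19 to 13.50 (median 13.32) in surrounding livers and 13.29 to 14.10 (median 13.65) in tumours, so the ranges overlapped. It was at 13.19, 13.26 and 13.31 in Mst1/2 flox, 13.40 and 13.39 in Wt, 13.50, 13.46 and 13.42 in Mst1/2 surrounding liver, and 13.72, 13.68, 13.46 and 13.23 in Mst1/2 tumours. Its 2 probes barely ran together (r = 0.167), and the mean over them gave no call in either comparison (adjusted p = 0.062 and 0.28). Psmc1 fell by 0.39 on the log2 scale (SE 0.15, adjusted p = 0.044), and without Sav1 flox liver 2 it differed by -0.34 ± 0.18 (0.17).

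Psmd8, a lid subunit, showed the largest difference of any member. It rose in Sav1 tumours by 1.90 ± 0.39 over Sav1 flox (3.73-fold, adjusted p = 5.3e-04) and lay 2.55 ± 0.35 above Mst1/2 tumours (5.85-fold, adjusted p = 1.1e-04). Its log2 level was 10.41, 8.03 and 10.75 in Sav1 flox, 10.51 to 11.11 (median 10.84) in Sav1 surrounding liver and 11.05 to 12.25 (median 11.67) in Sav1 tumours. In Mst1/2 flox it was 8.42, 8.80 and 8.73, and in Wt 8.58 and 8.99. Mst1/2 tumours were at 9.49, 9.18, 8.89 and 8.76. Mst1/2 surrounding livers split, with 11.29 and 11.43 in samples 1 and 2 and 9.19 in sample 3. The normal livers also split, since Sav1 flox livers 1 and 3 lay above the other 6, and no Sav1 tumour overlapped any Mst1/2 tumour.

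The Psmd8 difference between the tumours was 2.66 ± 0.26 within array set B (adjusted p = 0.0017). Over all arrays Psmd8 was the only member called between the tumours, beside 1.38% of all genes higher and 2.33% lower. Psmd8 in Mst1/2 surrounding liver was also called against Mst1/2 flox (1.99 ± 0.49, adjusted p = 0.017), the only member called in that comparison, beside 2.52% of genes higher and 1.31% lower. That call was lost on leaving out any of 4 of the 6 arrays (adjusted p from 0.054 to 0.17). Without Sav1 flox liver 2 the rise in Sav1 tumours was 1.05 ± 0.35 (adjusted p = 0.036). The difference between the lines in the tumour-to-surrounding change was 2.38 ± 0.54 and did not pass over all genes (adjusted p = 0.083). A single kept probe stands for Psmd8.

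Psmd14, the deubiquitinase of the lid, rose in Sav1 tumours by 0.82 ± 0.26 (limma, adjusted p = 0.017), but among the Sav1 samples its levels followed the array sets. Outside the Sav1 samples set B did not stand as high, with Wt livers at 10.91 and 11.03 and Mst1/2 tumours at 10.70 to 11.70. In Sav1 surrounding liver it was 10.60 to 10.75 in the 3 samples of set A and 11.58 to 11.64 in the 4 of set C. In Sav1 tumours it was 10.57 to 11.51 in set A, 11.55 to 11.94 in set B and 12.06 to 12.13 in set C, and the 3 flox controls of set A were at 10.57, 10.77 and 10.98. Within set A the difference was 0.24 ± 0.26 (adjusted p = 0.66), and without Sav1 flox liver 2 it was 0.82 ± 0.31 (0.062). The assembly factor Psmg4 behaved likewise among the Sav1 tumours, with 5.92 to 6.05 in set A and 6.54 to 7.03 in set B. The Mst1/2 tumours, also of set B, were at 6.08 to 6.11. Psmg4 was above background on 12 arrays, 8 of Sav1 tumours and 4 of Sav1 surrounding liver, and on none of any other group. It passed the filter only through these groups, so its call cannot serve as support for a rise. The difference of Psmg4 between Sav1 tumours and flox was 0.67 ± 0.21 over all arrays (adjusted p = 0.013) and 0.05 ± 0.13 within set A. It was 0.66 ± 0.25 without Sav1 flox liver 2 (adjusted p = 0.058). Psmd5, a chaperone of base assembly, was called 0.89 ± 0.26 lower (adjusted p = 0.0093), with -0.24 ± 0.18 within set A. Its log2 level was 8.42, 8.27 and 8.02 in Sav1 flox, 7.13 to 8.01 (median 7.49) in Sav1 surrounding liver and 6.30 to 8.20 (median 7.39) in Sav1 tumours. It was at 8.32, 8.58 and 8.19 in Mst1/2 flox, 9.51 and 8.84 in Wt, 8.15, 7.72 and 8.17 in Mst1/2 surrounding liver, and 8.21, 7.96, 7.94 and 7.77 in Mst1/2 tumours. Sav1 tumours of set B were the low samples.

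**Figure D4:**
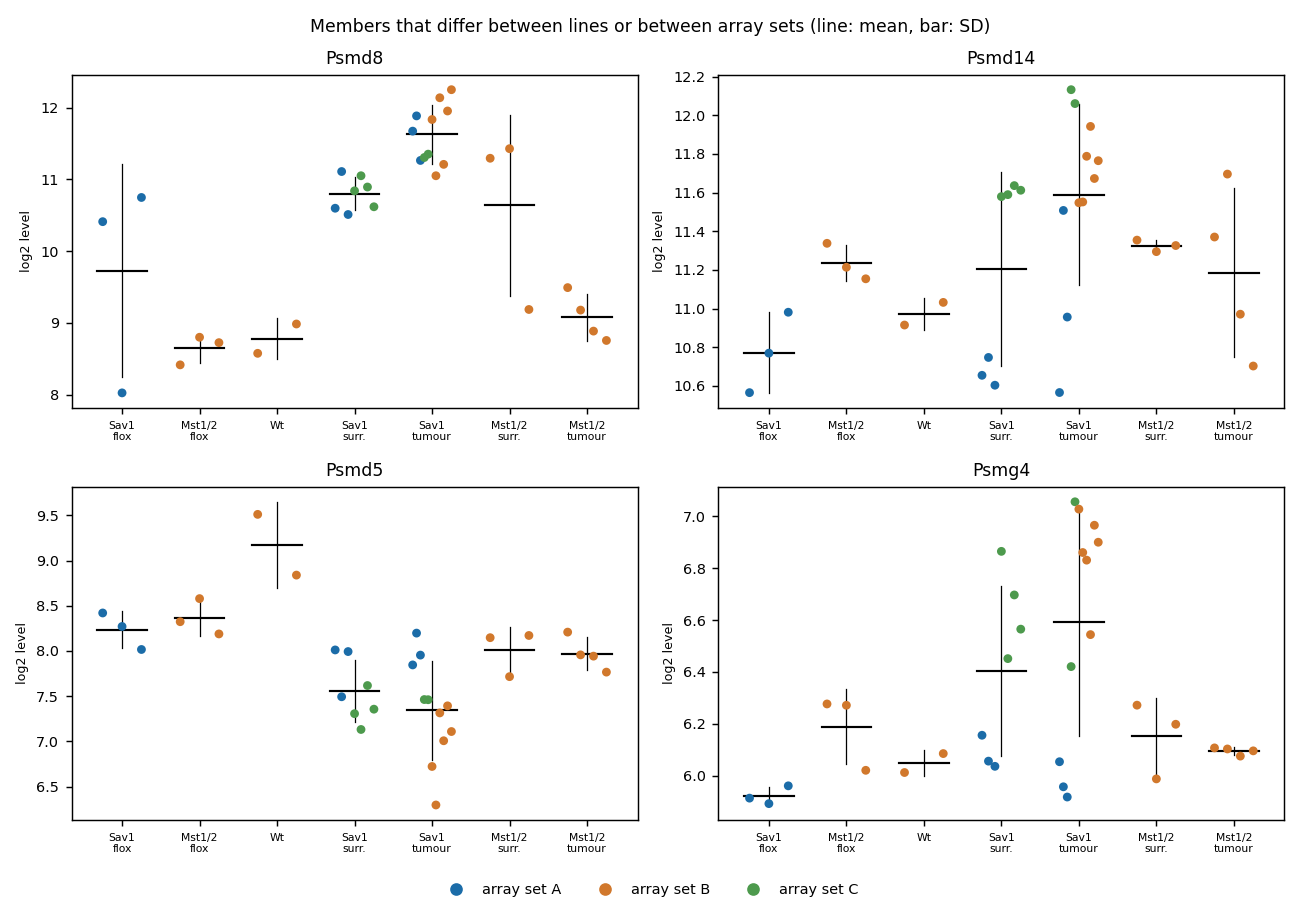
Log2 level of Psmd8, Psmd14, Psmd5 and Psmg4, 1 point per sample coloured by array set, with group mean (line) and SD (bar). Psmd8 separates Sav1 tumours from Mst1/2 tumours at 11.05 and above against 9.49 and below, while Psmd14, Psmd5 and Psmg4 separate array set A from the other sets inside the Sav1 tumours, as they do in Sav1 surrounding liver except for Psmd5 in sample 2 (7.49).

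Psmd10, the assembly chaperone also called gankyrin and known as an oncoprotein of human liver cancer, rose in Sav1 tumours by 0.92 ± 0.27 (1.89-fold, adjusted p = 0.0096). Its log2 level was 10.35, 9.70 and 10.47 in Sav1 flox, 10.29 to 11.84 (median 10.60) in Sav1 surrounding liver and 10.41 to 12.14 (median 11.03) in Sav1 tumours. All tumours but number 7 exceeded the flox livers. Mst1/2 flox livers were at 10.42, 10.37 and 10.33, surrounding livers at 10.81, 10.92 and 10.80, tumours at 11.16, 11.01, 11.15 and 10.80, and Wt livers at 9.58 and 10.46. Every Mst1/2 -/- sample was above the Mst1/2 flox livers, but the difference of 0.66 ± 0.31 did not pass (adjusted p = 0.14). In Sav1 tumours the value was 1.23 ± 0.30 with array set as a block (adjusted p = 0.0057) and 0.68 ± 0.31 without Sav1 flox liver 2 (0.11). The mean over its 3 probes gave 0.62 ± 0.28 and no call (adjusted p = 0.085), and the other probes differed by 0.19 and 0.75.

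The remaining falls in Sav1 tumours concerned Psmd11, Psmd1 and Psme3. Psmd11, a lid subunit, fell by 0.68 on the log2 scale (SE 0.19, adjusted p = 0.0065), from 10.27, 10.38 and 10.25 in flox livers to 8.71 to 9.89 (median 9.72) in tumours, with no overlap. Sav1 surrounding livers lay between 9.50 and 10.34 (median 9.87), the Mst1/2 flox livers at 10.62, 10.48 and 10.43 and the Wt livers at 10.41 and 10.45. Mst1/2 surrounding livers were at 10.21, 10.04 and 10.37 and Mst1/2 tumours at 9.95, 10.07, 9.99 and 9.77. Its other probe differed by 0.52 in the opposite direction, so the gene's direction is uncertain. Psmd1, a scaffold of the base, fell by 0.58 (SE 0.21, adjusted p = 0.036), and its other probes gave -0.36 and 0.23. It differed by -0.31 ± 0.24 without Sav1 flox liver 2 and was not called (adjusted p = 0.36). Psme3, the PA28-gamma ring of the nucleus, fell by 0.67 in tumours (SE 0.19, adjusted p = 0.0074) and by 0.74 in surrounding liver (SE 0.20, adjusted p = 0.018). It was highest in Sav1 flox liver 2 at 11.65, against 10.91 and 11.13 in the other Sav1 flox livers, 9.91 to 10.94 (median 10.44) in Sav1 surrounding livers and 10.23 to 11.24 (median 10.44) in Sav1 tumours. It was at 10.21, 10.35 and 10.18 in Mst1/2 flox, 10.80 and 10.60 in Wt, 10.49, 10.44 and 10.26 in Mst1/2 surrounding liver, and 10.53, 10.19, 10.31 and 10.07 in Mst1/2 tumours. Sav1 flox liver 2 was the highest of all arrays, and without that liver neither fall passed (-0.46 ± 0.21 and -0.53 ± 0.22, adjusted p = 0.12 and 0.20).

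**Figure D5:**
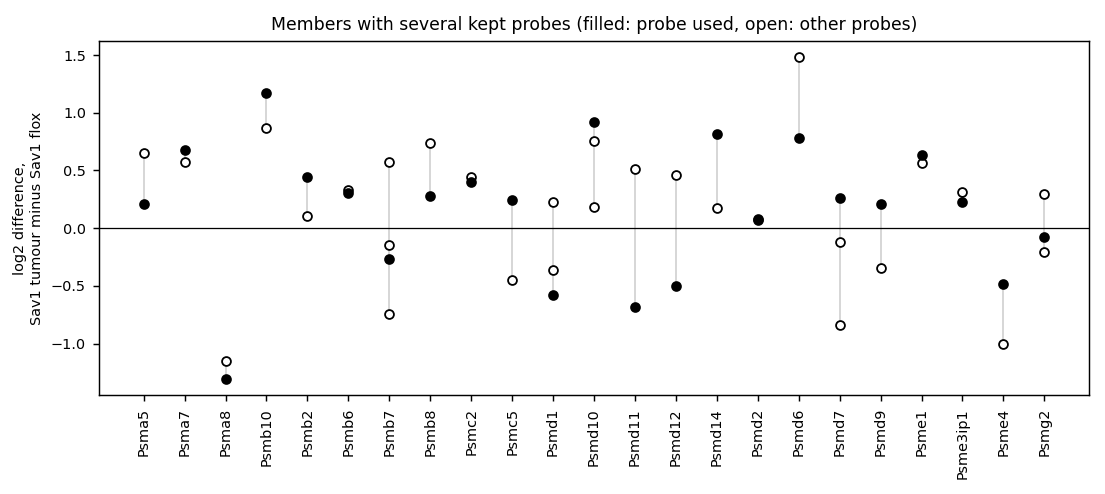
Log2 difference between Sav1 tumours and Sav1 flox livers for each probe of the 23 members with several kept probes, filled for the probe used and open for the others. Probes of Psmb10, Psma7, Psma8 and Psme1 lie close together, and those of Psmd11, Psmd12 and Psmb7 lie on both sides of 0.

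Over the 23 members with more than 1 kept probe, every pair of probes of a gene had r of at least 0.5 in 15, and 5 had a pair with negative r. Another probe had the opposite sign to the one used in 8 of them in Sav1 tumours against flox. The other 22 members rest on 1 kept probe.

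Sav1 surrounding liver against Sav1 flox gave only the calls of Psmb10 and Psme3, beside 4.92% of all genes higher and 5.4% lower. Neither passed without Sav1 flox liver 2, at 1.05 ± 0.39 for Psmb10 and -0.53 ± 0.22 for Psme3 (adjusted p = 0.14 and 0.20), when 323 of all genes were called in place of 1479. The constitutive 26S subunits had no call in that comparison among 27 (median difference 0.05). Sav1 tumours against their surrounding liver gave Psmc2, described above, and the partner gene Psmc3ip, beside 6.79% of genes higher and 5.64% lower.

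Mst1/2 tumours against Mst1/2 flox had 2 members higher and 2 lower, beside 11% and 8.83% of all genes. Besides Psme1, Psmc3ip rose by 1.22 ± 0.32 (adjusted p = 0.0067). Psmd9, a chaperone of base assembly, fell by 0.75 (log2, SE 0.25, adjusted p = 0.036), from 8.89, 9.03 and 9.00 in flox livers to 8.09, 8.17, 8.44 and 8.18 in tumours, with surrounding livers at 8.35, 8.05 and 8.52. It was at 8.88, 7.96 and 8.65 in Sav1 flox, 8.74 and 9.08 in Wt, 8.19 to 9.07 (median 8.63) in Sav1 surrounding liver and 8.12 to 9.42 (median 8.74) in Sav1 tumours. Psmd2, a scaffold of the base, fell by 0.50 (SE 0.12, adjusted p = 0.0030), from 7.41, 7.51 and 7.65 to 7.02, 6.92, 7.18 and 6.97. It was at 6.88, 6.84 and 6.42 in Sav1 flox, 7.70 and 7.36 in Wt, 6.50 to 6.92 (median 6.73) in Sav1 surrounding liver, 6.69 to 6.87 (median 6.78) in Sav1 tumours and 7.24, 6.99 and 7.43 in Mst1/2 surrounding liver. The Sav1 samples ended where the Mst1/2 and Wt samples began, at 6.92. Neither fall passed under median scaling (adjusted p = 0.61 and 0.75). Leaving out any array but Mst1/2 tumour 3 ended the Psmd9 call (adjusted p from 0.063 to 0.10). The 3 normal liver groups differed in Psmd2, Psme3 and Psmc3ip (moderated F, 5.26% of all genes). All Sav1 flox livers were in array set A and the others in set B. Genotype and set therefore cannot be told apart where Sav1 flox livers are set against the others. In Psmc3ip the Wt livers (9.11 and 9.87) also stood apart from the Mst1/2 flox livers (6.53, 6.95 and 6.79) of the same set. Judged against Sav1 flox livers Psmd2 in Mst1/2 tumours lay 0.31 ± 0.12 higher (adjusted p = 0.051).

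Mst1/2 tumours against their own surrounding liver gave no member call, beside 0.0209% of all genes called higher and 0.0488% lower. With limma 1 member had unadjusted p under 0.05, a count that was not taken over all genes. Surrounding livers of the lines differed in Psmd2 alone, which lay 0.50 ± 0.10 lower in Sav1 (adjusted p = 0.016), beside 0.467% of genes higher and 0.446% lower. Every Sav1 surrounding liver was in array set A or C and every Mst1/2 one in set B, so line and array set cannot be told apart within these groups. With array set as a block, where Sav1 tumours alone link set B to the others, the difference was -0.55 ± 0.14 (adjusted p = 0.020). Samples of the 2 lines cannot be from 1 mouse, so shared replicate numbers are no true pairs between them. With those numbers as a block over samples 1 to 3, the Psmd2 difference was -0.58 (adjusted p = 0.092). That fit called Psmd14 instead (-0.66, adjusted p = 0.039). The differences between lines in the tumour-to-flox and tumour-to-surrounding changes gave no member call. Of all genes 0.628% were called higher and 0.488% lower for the first, and 0.0209% and 0.0628% for the second. Unadjusted p (limma) was under 0.05 for 10 and 1 of the 45 members, a count that was not taken over all genes. Psmd2 in the first had a difference of 0.58 ± 0.15 (adjusted p = 0.059).

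Psmc3ip, a cofactor of meiotic recombination enzymes that is no proteasome subunit, followed normal liver groups as well as tumours. It was at 6.43, 6.49 and 6.73 in Sav1 flox, where no array was above background, and at 7.01 to 9.14 (median 8.05) in Sav1 tumours, at least 2.45-fold higher (adjusted p = 1.7e-04). The Wt livers were at 9.11 and 9.87, the Mst1/2 flox livers at 6.53, 6.95 and 6.79, and the Mst1/2 tumours at 8.03, 8.33, 7.73 and 7.84. Surrounding livers were at 6.98 to 7.65 (median 7.10) in Sav1 and at 7.75, 7.81 and 7.80 in Mst1/2. Only Sav1 tumour 5, at 9.14, reached the range of the Wt livers. Psmc3ip rose in Sav1 tumours over surrounding liver by 0.82 ± 0.20 (adjusted p = 0.0059). Psme3ip1 gave no call in any of the 8 comparisons.

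Other genes of the pathway were taken from fixed lists. Their counts stand beside 16.9% of all genes higher and 15.8% lower in Sav1 tumours against flox. The shares were 4.92% and 5.4% in Sav1 surrounding liver and 11% and 8.83% in Mst1/2 tumours. Of 8 tested genes of ubiquitin supply and delivery, 4 fell in Sav1 tumours against flox and none rose (median difference -0.44 against 0.05 over all genes). Rad23b, which shuttles ubiquitinated proteins to the proteasome, fell by 1.08 on the log2 scale (SE 0.17, adjusted p = 3.0e-05), and Nploc4, a partner of the segregase p97, fell by 0.96 (SE 0.17, adjusted p = 1.5e-04). In Mst1/2 tumours 3 of the 8 fell, Rad23b by 1.09 and Nploc4 by 0.69 (adjusted p = 3.3e-04 and 0.017). In Sav1 surrounding liver 3 fell, Ufd1 by 0.87 and Rad23b by 0.65 (adjusted p = 0.0017 and 0.021). Without Sav1 flox liver 2 the 4 falls in Sav1 tumours held, and in surrounding liver Ufd1 alone was called. Under median scaling the direction of the list in Sav1 tumours turned (median 0.07, with 2 called higher and Rad23b alone lower), and the median in Mst1/2 tumours turned to 0.07 with 2 called lower.

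Of 15 tested genes of interferon-gamma signalling, 6 rose and none fell in Sav1 tumours (median difference 0.93), beside 16.9% and 15.8% of all genes. The largest rises were those of the receptor chains Ifngr1 (1.61 ± 0.29, adjusted p = 1.6e-04) and Ifngr2 (1.30 ± 0.36, adjusted p = 0.0065). Without Sav1 flox liver 2 these 2 alone were called. In Sav1 surrounding liver 2 rose, Irf8 by 1.52 and Ifngr1 by 1.05 (adjusted p = 0.012 and 0.029), and without liver 2 none was called. In Mst1/2 tumours Ifngr1 alone rose (1.45 ± 0.34, adjusted p = 0.0034). Ifng itself was below the filter.

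Of 12 tested genes of MHC class I antigen processing, H2-K1 rose in Sav1 tumours by 1.36 ± 0.32 (adjusted p = 0.0021) and the chaperone Calr fell by 1.28 (SE 0.37, adjusted p = 0.0099). Tap1, whose promoter window overlaps that of Psmb9, differed by 0.02 ± 0.28 (adjusted p = 0.97). In Sav1 surrounding liver H2-K1 and H2-T23 rose by 1.39 and 1.17 (adjusted p = 0.011 and 0.020), and in Mst1/2 tumours the trimming peptidase Erap1 fell by 0.72 (adjusted p = 0.044). The list kept H2-K1 alone in Sav1 tumours and H2-T23 alone in surrounding liver when Sav1 flox liver 2 was left out.

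Of 12 tested genes around Nrf1 and Nrf2, the factors known to drive proteasome genes under stress, 4 rose and 1 fell in Sav1 tumours. Of all genes 16.9% rose and 15.8% fell. Mafk, a small Maf partner, rose by 1.71 ± 0.31 (adjusted p = 1.3e-04), Txnrd1 rose by 1.16 ± 0.42 (0.036) and Gclc fell by 0.91 (SE 0.32, 0.030). The gene of Nrf1, Nfe2l1, differed by -0.12 ± 0.17 (adjusted p = 0.62). Mafk rose in Sav1 surrounding liver (1.16 ± 0.32, adjusted p = 0.022), Gclm in Mst1/2 tumours (0.61 ± 0.21, adjusted p = 0.041), and no other gene of the list was called there. Without Sav1 flox liver 2 Mafk was the only call of the list in Sav1 tumours, and none was left in surrounding liver. Of 8 tested partners of the proteasome that carry other names, Sem1, a small lid subunit, rose in Sav1 tumours by 1.28 ± 0.29 (adjusted p = 0.0013), and none was called in Sav1 surrounding liver or Mst1/2 tumours, nor in Sav1 tumours without Sav1 flox liver 2. Of 11 ubiquitin ligase and deubiquitinase genes, the ligase subunit Rbx1 rose in Sav1 tumours by 1.12 ± 0.20 (adjusted p = 1.5e-04), and Btrc and Usp7 fell by 0.79 and 0.40 (adjusted p = 0.0018 and 0.0097). Btrc and Usp7 also fell in Sav1 surrounding liver, by 0.79 and 0.38 (adjusted p = 0.011 and 0.047), and neither was called lower in Sav1 tumours under median scaling or without Sav1 flox liver 2, where Rbx1 kept its call. No gene of that list was called in surrounding liver without that flox liver.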

How the data were processed

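The 33 mouse liver samples were each measured on an Illumina MouseWG-6 v2.0 array of 45281 probes. BeadStudio was used, per the submitters' processing notes. Deposited by the authors were an intensity per probe on a linear scale, without detection p-values, and a matrix of log2 values that equalled their quantile-normalized signals within 0.005, uncentred, with a median of 6.57 in every column. Probe genes came from the platform annotation (34885 probes with 1 symbol, 18 with several, 10378 with none), checked against RefSeq for 34807.

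Intensities were corrected with normexp (offset 50), quantile normalized and fitted with limma 3.58.1 in R 4.3.3, 1 mean per group over all arrays. A probe was above background past a threshold of 80.8 to 108 signal units, the 99th percentile of a background distribution mirrored at each array's mode, and a gene was tested if that held on at least 3 arrays. Calls are two-sided, Benjamini-Hochberg below 0.05 over all genes. The number of arrays limits the precision. Correlations used Python 3.11.15 with scipy 1.17.1. On simulated data 131 of 200 genes changed by 1 log2 unit were recovered for Sav1 tumour against flox, with 6 false calls. In the other comparisons 101 to 173 were recovered, with 2 to 15 false calls. The simulated noise was independent between genes and held no array sets, so these counts need not hold for the real arrays.

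Members and lists were chosen with earlier results of these data known. Values by sample are given, by a fixed rule, for Psmb8, Psmb9, Psmb10, Psme1, Psme2, Psmb5, Psmb6, Psmb7, Psmd10 and for the 3 called members with the largest rise and fall in each comparison, and lists name up to 2 called genes each way. Some other genes were named after their values were seen. No arrays were duplicates (highest r 0.994). Same-numbered samples deviated together in all 3 pairs only for the surrounding livers of the lines (r 0.181 to 0.337, from the data, not the labels). Alternatives were the deposited log2 values, median scaling, another offset, other filters, all probes, array-set and replicate blocks, other controls, and leaving out each array.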

Additional observations from a re-analysis of the deposited data

Results flagged for a closer look

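In 5 groups of values there was a sample whose gap to its nearest neighbour was unusually large for the group's range, out of 90 tested, and chance flags about 1 group in 20. Only Sav1 surrounding liver and Mst1/2 tumours were tested in this way, so the Sav1 tumours and the other groups could not be flagged. All flags were in Sav1 surrounding liver, and 4 were in sample 2. Psmd10 stood at 11.84 there (log2) against 10.29 to 10.68 in the other 6 samples. Psmb9 stood at 11.65 against 10.49 to 10.84, Psme1 at 13.27 against 12.41 to 12.70, and the alpha ring gene Psma2 at 13.79 against 13.29 to 13.50. In sample 4, Psme3ip1 stood at 10.26 against 9.49 to 9.69. Sample 2 also had the highest mean of T and NK cell markers (8.64) and of pan-leukocyte markers (10.83) among the Sav1 surrounding livers, and the part of those cells in its levels was not tested. Without sample 2 both calls in Sav1 surrounding liver against Sav1 flox held, with Psmb10 at 1.16 (limma, adjusted p = 0.029) and Psme3 at -0.78 (0.019).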

How the results depend on the processing

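Counts of called members moved with the processing, and causes were not tested. Where no count over all genes stands beside them, the counts of this section cannot show whether members moved more than all genes. Sav1 tumour against flox (16 calls) gave 27 under median scaling (27 higher), 9 with array set as a block, 9 with only the 2 groups fitted and 2 within array set A. Over all genes median scaling gave 4605 higher and 691 lower against 2426 and 2260. Psmc1 turned to 0.16 there. Sav1 surrounding against flox (2 calls, beside 1479 of all genes) gave 6 under median scaling (beside 1450). It also gave 1 with the array set block, 0 within set A and 9 against the mean of the normal livers. Sav1 tumour against surrounding (2) gave 1 with the mean of all probes, 4 with the array set block, 0 within set A and 4 within set C. Mst1/2 tumour against flox (4) gave 10 with only the 2 groups fitted, and Psmd2 turned to 0.31 with Sav1 flox livers as control. Mst1/2 surrounding against flox (1) gave 2 with offset 16, with the array set block and with the mean of the normal livers, 7 with only the 2 groups fitted and 3 with Sav1 flox as control. Sav1 against Mst1/2 tumours (1) gave 9 with the array set block and 5 within set B. Surrounding livers of the lines (1) gave 6 with the array set block, 0 with the mean of all probes and 0 with only the 2 groups fitted.

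With the replicate number as a block, calls were 0 in Sav1 tumour against flox, 0 in Sav1 surrounding against flox, 5 in Sav1 tumour against surrounding, 0 between tumours of the lines (Psmd8 at 2.45, adjusted p = 0.061) and 1 between surrounding livers. The same arrays unpaired, a setting chosen after seeing the data, gave 2 and 0 in the first pair of these. The numbers are not given as pairs by the labels. Samples of different lines, and Sav1 -/- and flox samples, cannot be from 1 mouse, so those block fits are not paired tests. Same-numbered Sav1 tumours and surrounding livers correlated at 0.069 to 0.69 (over 0.1 in 5 of 7, best with their own number in 4). Correlations were -0.082 to -0.019 for Sav1 tumour and flox, and -0.213 to 0.273 between tumours of the lines.

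Leaving out 1 array at a time gave 6 to 19 calls in Sav1 tumour against flox (6 without Sav1 flox liver 2, beside 2947 of all genes). It gave 0 to 3 in Sav1 surrounding against flox (0 without that liver, beside 323 of all genes). It gave 2 to 3 in Sav1 tumour against surrounding, 2 to 3 in Mst1/2 tumour against flox (2 without any flox liver or without tumour 1 or 4), 0 to 1 in Mst1/2 surrounding against flox (0 without flox liver 4 or 6 or surrounding liver 1 or 2), 1 to 2 between tumours (2 without Sav1 tumour 11) and 0 to 1 between surrounding livers (0 without Mst1/2 sample 1 or 3). Mst1/2 tumour against surrounding stayed at 0 with limma in every setting run (1 member at unadjusted p under 0.05). For single members, 48 of the called values fell short of the threshold when 1 array was left out and 291 did not. The number of arrays limits the precision.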
